A study of Homo sapiens with 4 samples.

Results

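The 3 LvM3b cultures were compared with Ls-Parental over 9756 genes, out of 18665 that had a probe of their own on the array. A gene was taken when its probe was detected on all 3 LvM3b arrays or on the Ls-Parental array, with a deposited Detection score above 0.99. Of these genes, 8889 were detected on all 4 arrays, 162 on the LvM3b arrays but not on Ls-Parental, and 285 on Ls-Parental and none of the LvM3b arrays. A further 420 were detected on Ls-Parental and on 1 or 2 LvM3b arrays. On Ls-Parental, 105 genes lay just inside the detection threshold, at a score of 0.99078 and log2 levels of 6.13 to 6.22, and 23 lay just outside it, at a score of 0.98946 and levels of 6.11 to 6.13.

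LvM3b comes from a human colon adenocarcinoma and, by published accounts, was obtained by selecting cells that colonised the liver. Its cultures were one that over-expressed miR-483, whose 5p strand the series title names, one that over-expressed miR-551a, and a control culture without either label. Ls-Parental is the parental colon cancer line and was profiled in 1 culture. Its title and source name say Ls-Parental, while its cell line entry reads LvM3b, and the data below are given under the title. All cells were grown in DMEM with serum and harvested before full confluence, and labels name no passage, clone or sorting step. There was 1 Illumina bead array per culture and no replicate, so the spread quoted below is that between the 3 LvM3b cultures, microRNA differences included. The spread of Ls-Parental was not measured.

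The intestinal lining is renewed from stem cells marked by LGR5, which depend on WNT signals. Their daughters become absorptive cells or secretory cells: goblet cells make mucins and trefoil peptides, and Paneth cells make defensins, lysozyme and other antimicrobial proteins. Colon cancer lines often keep parts of these programmes. The comparison asked which transcripts set the liver-selected line apart from its parent whatever microRNA it carried.

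The arrays of one line were close to each other. Across the 9756 genes the SD of log2 differences between LvM3b arrays was 0.22 to 0.26, and between an LvM3b array and Ls-Parental it was 0.54 to 0.58. Between 16 and 35 genes (0.164 to 0.359%) differed by 2-fold or more between LvM3b arrays, against 542 to 638 genes (5.56 to 6.54%) between LvM3b and Ls-Parental. The median deposited signal lay between 103.6 and 115.4 on all 4 arrays. Of 12 measured colon epithelium markers, 11 were detected on each LvM3b array and 12 on Ls-Parental, and their summed linear level was 107467 to 110013 in LvM3b and 106259 in Ls-Parental. The missing one in LvM3b was KRT20, the keratin of mature colon cells. Markers of other cell types were sparse. Of 8 fibroblast markers, LUM and COL3A1 were detected on the LvM3b arrays and none on Ls-Parental, with summed levels of 540 to 637 against 323, and COL1A1, COL1A2, DCN and POSTN were undetected on every array. Of 6 immune markers only CD68 was detected in LvM3b, and CD68 and CD14 in Ls-Parental, with summed levels of 469 to 508 against 884, while PTPRC, CD3E, HLA-DRA and TYROBP were undetected throughout. Among 4 endothelial markers PECAM1 alone was detected, on the miR-483 array only, and the summed level was 140 to 166 in LvM3b against 150 in Ls-Parental. Of 9 hepatocyte markers, SERPINA1 was detected in LvM3b, and SERPINA1 and FGG in Ls-Parental, with summed levels of 391 to 462 against 747; ALB, APOA1 and TTR were undetected on all 4 arrays.

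A line difference was counted when a gene's normalized log2 level lay at least 2-fold above, or at least 2-fold below, Ls-Parental on each of the 3 LvM3b arrays. By this rule 200 genes (2.05% of those tested) were higher in LvM3b and 192 (1.97%) were lower, together 392 (4.02%). The authors' processed values, which are the raw signals times 1 factor per array, gave a more one-sided split of 140 higher and 80 lower (63.6% higher, against 51.0% in the main values). Among the higher genes 129 were detected on all 4 arrays and 71 on the LvM3b arrays only. Among the lower genes 97 were detected on all 4, 74 on Ls-Parental only, and 21 on Ls-Parental and part of the LvM3b arrays. Where one line was undetected, a bound is given as "at least N-fold": the mean level of the brighter line is set against the higher of the dim array's lowest detected level and the gene's own level there. With all such genes held at their bound, 168 stayed 2-fold higher and 142 stayed 2-fold lower. A transcript can be lower because fewer cells make it or because each cell makes less, and these bulk RNA samples cannot tell the cases apart.

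As a second description, limma was fitted with line as its only term. It takes its spread from the 3 LvM3b arrays and assumes that the lone Ls-Parental array varies like them. At a Benjamini-Hochberg adjusted p under 0.05 it called 933 genes higher (9.56%) and 839 lower (8.6%). In the authors' processed values these were 1714 and 574 (74.9% higher, against 52.7%). The counts leaned on single arrays: without miR-483 they were 563 higher and 476 lower, and without the LvM3b control 1364 and 1389. All 392 genes of the 2-fold rule were among the limma calls, with adjusted p-values of at most 0.0104 for the higher genes and 0.0373 for the lower ones. Both descriptions use the same values, so the overlap is no separate support. The median SD over the LvM3b arrays was 0.13 for the higher genes, 0.17 for the lower genes and 0.11 over all genes. On all 3 arrays 52 genes were at least 4-fold higher and 35 at least 4-fold lower. At 16-fold 5 genes remained in each direction, before bounds.

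**Figure D1:**
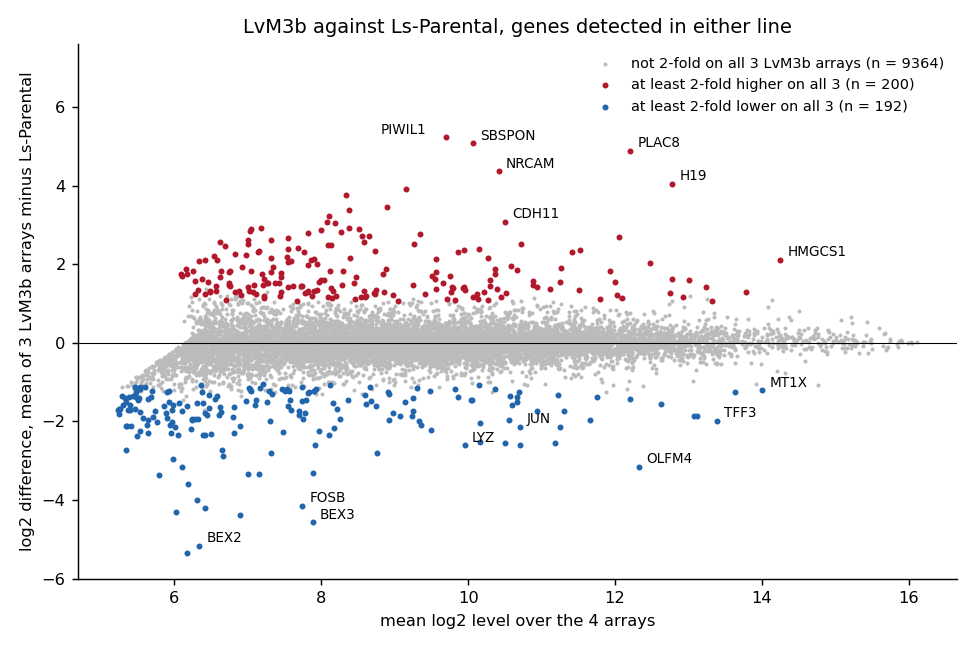
Each point is 1 of 9756 genes, with its mean log2 level over the 4 arrays on the x axis and the mean of the 3 LvM3b arrays minus Ls-Parental (log2) on the y axis. The 200 genes at least 2-fold higher on all 3 LvM3b arrays are red and the 192 at least 2-fold lower are blue. Differences of undetected genes are drawn as measured, not at their bound.

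Among genes detected on all 4 arrays, the furthest above Ls-Parental was SBSPON, which encodes a secreted matrix protein with somatomedin B and thrombospondin domains. Its log2 level was 11.43 in the LvM3b control, 11.21 with miR-483 and 11.34 with miR-551a, against 6.26 in Ls-Parental, a 33.7-fold mean difference (limma adjusted p = 1.01e-10). PLAC8, a small cysteine-rich protein, had levels of 13.56, 13.21 and 13.51 in LvM3b and 8.54 in Ls-Parental (29.4-fold). For both genes the 3 LvM3b values lay within 0.35 of each other and far from the parental value. NRCAM, a neuronal cell adhesion molecule of the immunoglobulin family, stood at 11.48, 11.40 and 11.64 in LvM3b and 7.15 in Ls-Parental (20.5-fold). Second probes of NRCAM and PLAC8 gave log2 differences of 4.54 and 5.28. H19, a maternally expressed imprinted RNA, was bright in both lines, with levels of 13.75, 13.79 and 13.82 in LvM3b against 9.74 in Ls-Parental (16.5-fold). It was the only one of 10 detected imprinted genes that passed the 2-fold rule, and the median of those 10 was 0.13 on the log2 scale.

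PRR5L, which binds the mTORC2 kinase complex, read 10.17, 10.18 and 10.07 in LvM3b and 6.22 in Ls-Parental (15.2-fold). ASB4, a SOCS-box subunit of ubiquitin ligases, was 10.9-fold higher. CDH11, a cadherin best known from mesenchymal cells, had levels of 11.27, 11.22 and 11.30 in LvM3b against 8.19 in Ls-Parental (8.42-fold). The other members of this set were GLDC of the glycine cleavage system (7.63-fold), the nuclear import receptor IPO7 (7.46-fold), the lens crystallin CRYBA4 (7.04-fold) and the tyrosine sulfating enzyme TPST2 (6.48-fold). EDAR, a receptor of the tumour necrosis factor family, was 6.61-fold higher, ANGPT1, a ligand of the TIE2 receptor, 6.84-fold, and the homeobox gene HOXB5 6.6-fold. In none of these 14 genes did an LvM3b value come within 2.5 log2 units of Ls-Parental. The parental levels of SBSPON, PRR5L, ASB4, GLDC, IPO7 and CRYBA4 were 6.16 to 6.34. The lowest detected level of the Ls-Parental array was 6.13, so these folds rest on a parental signal close to background.

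Genes detected in LvM3b only can be given as bounds. PIWIL1, a germline partner of small RNAs, had levels of 11.01, 11.20 and 10.81 in LvM3b and 5.78, not detected, in Ls-Parental, so it was at least 29.4-fold higher. SOHLH2, a germline transcription factor, had 9.20, 9.34 and 9.28 in LvM3b and 5.51, undetected, in Ls-Parental, at least 8.85-fold higher. These 2 genes were picked after their values were seen, since the naming rule asked for a clearly absent parental signal. That rule gave PPP2R2C, a regulatory subunit of protein phosphatase 2A, at least 3.44-fold higher, MIAT, a non-coding transcript, with a bound of 3.11-fold, ROR2, a receptor tyrosine kinase that binds WNT5A (at least 3.07-fold), and the lysosomal protease CTSL (at least 2.88-fold). The amino acid transporter family member SLC43A3 and C17orf99 followed, with bounds of 2.85 and 2.40.

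In the other direction BEX3, a small adaptor protein gene on the X chromosome, had levels of 7.01, 6.65 and 6.57 in LvM3b against 11.31 in Ls-Parental (23.6-fold lower, limma adjusted p = 1.25e-08). Its LvM3b values lay not far above the lowest detected levels of those arrays, 6.15 to 6.38. Its neighbours BEX2 and TCEAL9 were lower too. BEX2 was at 10.22 in Ls-Parental and undetected on all 3 LvM3b arrays, at least 15.8-fold lower, and TCEAL9 was at 9.58 in Ls-Parental and undetected in LvM3b, at least 10.1-fold lower. BEX1 passed the 2-fold rule from a low parental level of 6.51, and its bound was 1.20-fold. The other 4 of the 8 detected BEX and TCEAL genes, TCEAL1, TCEAL3, TCEAL4 and TCEAL8, lay between -0.43 and 0.29 on the log2 scale. The list median was -1.05, or -0.35 with undetected members at their bound and -0.52 in the authors' processed values. Over all genes 1.97% were lower by the rule.

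The stress-responsive NIBAN1 was at 7.58, 6.75 and 6.83 in LvM3b and 10.37 in Ls-Parental (9.93-fold lower). Its LvM3b values lay not far above the detection limit, where the lowest detected level of an LvM3b array was 6.15 to 6.38. FSTL5, a secreted follistatin-like protein, was at 9.24 in Ls-Parental and undetected in LvM3b (at least 8.02-fold lower). BTN2A1, a butyrophilin, was at least 4.2-fold lower, and CEP15 at least 2.21-fold. RNASE1, a secreted ribonuclease, was 4.8-fold lower and SPINK1, a trypsin inhibitor, 6.07-fold lower. Probes for the cancer-testis genes GAGE4 and GAGE7 were 5.87-fold and 6.06-fold lower, although these genes belong to a family of near-identical copies and the probes may not tell them apart. Other cancer-testis genes went both ways. In a list without GAGE4 and GAGE7, 2 of 8 detected members were higher and 1 was lower, beside 2.05% and 1.97% of all genes. The list median was 0.65. MAGEA3 was 2.68-fold and MAGEA2 at least 3.26-fold higher, and PAGE1 was lower with a bound of 1.22-fold.

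**Figure D2:**
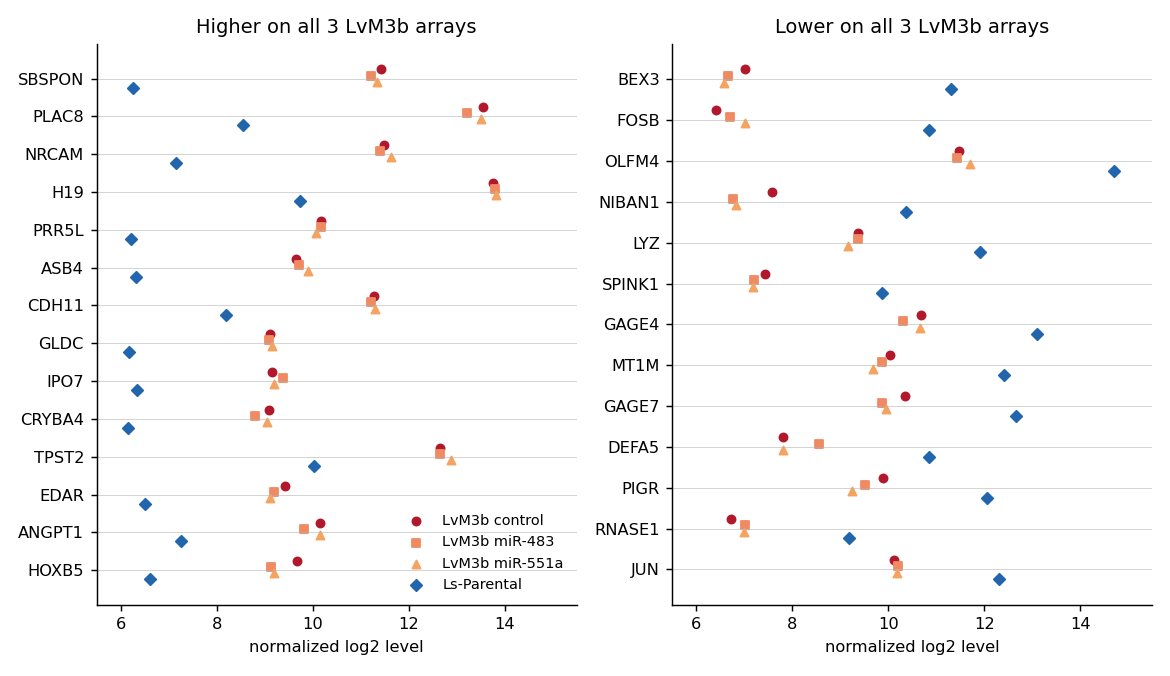
Normalized log2 levels (x axis) of the genes furthest higher (left) and furthest lower (right) among those detected on all 4 arrays, with 1 lower gene not drawn, with LvM3b arrays in red shades and Ls-Parental as blue diamonds. For every gene drawn the 3 LvM3b points lie on one side of the parental point. Their range differs by gene, from 0.06 for GLDC to 0.82 for NIBAN1.

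Of 19 detected genes of goblet cell mucins and secretory factors, 10 were at least 2-fold lower on all 3 LvM3b arrays and 1 was higher, and the median was -1.37 on the log2 scale (-0.87 with bounds, -0.66 in the authors' processed values), against -0.01 over all genes (0.10 in the authors' values). With bounds 7 stayed 2-fold lower. The limma fit called 15 of the 19 lower. Over all genes 1.97% were lower by the rule, and limma called 8.6% lower. The gel-forming mucin MUC2 was at 7.51, 7.5 and 7.0 in LvM3b and 9.12 in Ls-Parental (3.45-fold lower). The trefoil peptide TFF3, among the brightest genes of both lines, was at 12.99, 12.93 and 12.74 in LvM3b and 14.88 in Ls-Parental (3.96-fold lower). Transcription factors of the secretory lineage showed the same direction. KLF4 was 4.12-fold lower, and its other detected probe gave a log2 difference of -1.02. SPDEF, which drives goblet cell maturation, was detected on 1 of 3 LvM3b arrays and at least 3.3-fold lower. ATOH1, the switch to secretory fate, was undetected in LvM3b and at least 1.89-fold lower. ZG16, a lectin of the mucus layer, was at least 2.7-fold lower. REG4, a secreted lectin of the regenerating family, went the other way, with 13.35, 13.51 and 13.35 in LvM3b against 11.82 in Ls-Parental, a log2 difference of 1.59. The transcription factors FOXA1, FOXA2 and FOXA3 of this list differed by -0.08, 0.23 and -0.66.

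Of 14 detected Paneth cell and antimicrobial genes, 10 were lower and 1 higher, with a median of -2.12 (-1.35 with bounds, -1.13 in the authors' processed values). With bounds 8 stayed 2-fold lower. Over all genes, before bounds, 1.97% were lower and 2.05% higher by the rule. REG1A, a secreted lectin of the regenerating family, was at 10.18 in Ls-Parental and undetected on all 3 LvM3b arrays, at least 15.4-fold lower. Lysozyme, LYZ, was at 9.37, 9.37 and 9.16 in LvM3b and 11.90 in Ls-Parental (6.07-fold lower). The Paneth cell defensin DEFA5 was at 7.80, 8.56 and 7.80 in LvM3b and 10.85 in Ls-Parental (6.94-fold lower), and DEFA6 was 4.68-fold lower. A probe named for the neutrophil defensin DEFA1 was undetected in LvM3b and at least 2.18-fold lower; DEFA1 has near-identical copies. The antibody transporter PIGR was at 9.88, 9.50 and 9.24 in LvM3b and 12.05 in Ls-Parental (5.7-fold lower). Trypsinogen PRSS1 was at least 9.39-fold lower, while PRSS2 and PRSS3, its close relatives, lay at 0.47 and 0.41. The elastase inhibitor PI3 was higher, with 8.10, 7.87 and 8.67 in LvM3b and no detection in Ls-Parental (at least 4.25-fold).

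The stem cell list was mixed. Of 20 detected intestinal stem cell and WNT target genes, 3 were lower and 1 was higher, and the median was -0.03 (0.11 in the authors' processed values). OLFM4, a secreted glycoprotein of crypt stem cells, was at 11.48, 11.43 and 11.70 in LvM3b and 14.69 in Ls-Parental (8.9-fold lower). The WNT inhibitor APCDD1 was 4.24-fold lower, and DKK4, another, was undetected in LvM3b with a bound of 1.17-fold. LGR5, the stem cell receptor for R-spondins, was higher, at 7.6, 7.72 and 7.91 in LvM3b against 6.55 in Ls-Parental (2.28-fold). The WNT feedback gene AXIN2 and the stem cell factor ASCL2 differed by -0.32 and -0.12, less than 2-fold on every array. Among 14 detected enterocyte and brush border genes, 3 were lower, CA2 (2.82-fold), FABP2 and KRT20, the last pair with bounds of 1.20-fold and 1.39-fold. The list median was -0.04 (0.12 in the authors' values). Of the gut transcription factors, the vitamin D receptor VDR was 2.86-fold higher, and KLF4 was the only one of 16 that was lower. In the HOXB cluster 3 of 4 detected genes were higher. HOXB8 was at 9.82, 8.76 and 9.08 in LvM3b and undetected in Ls-Parental, at least 8.55-fold higher, and HOXB7 was at 10.29, 9.95 and 10.06 against 7.97 (4.38-fold). HOXB1, the remaining detected HOXB gene, differed by -0.26, and 6 HOXB genes were undetected. Only 1 of 11 HOXA genes had a named probe, so that cluster was hardly measured. This HOXA gene and 3 detected HOXC and HOXD genes passed the rule in neither direction, beside 4.02% of all genes that passed.

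**Figure D3:**
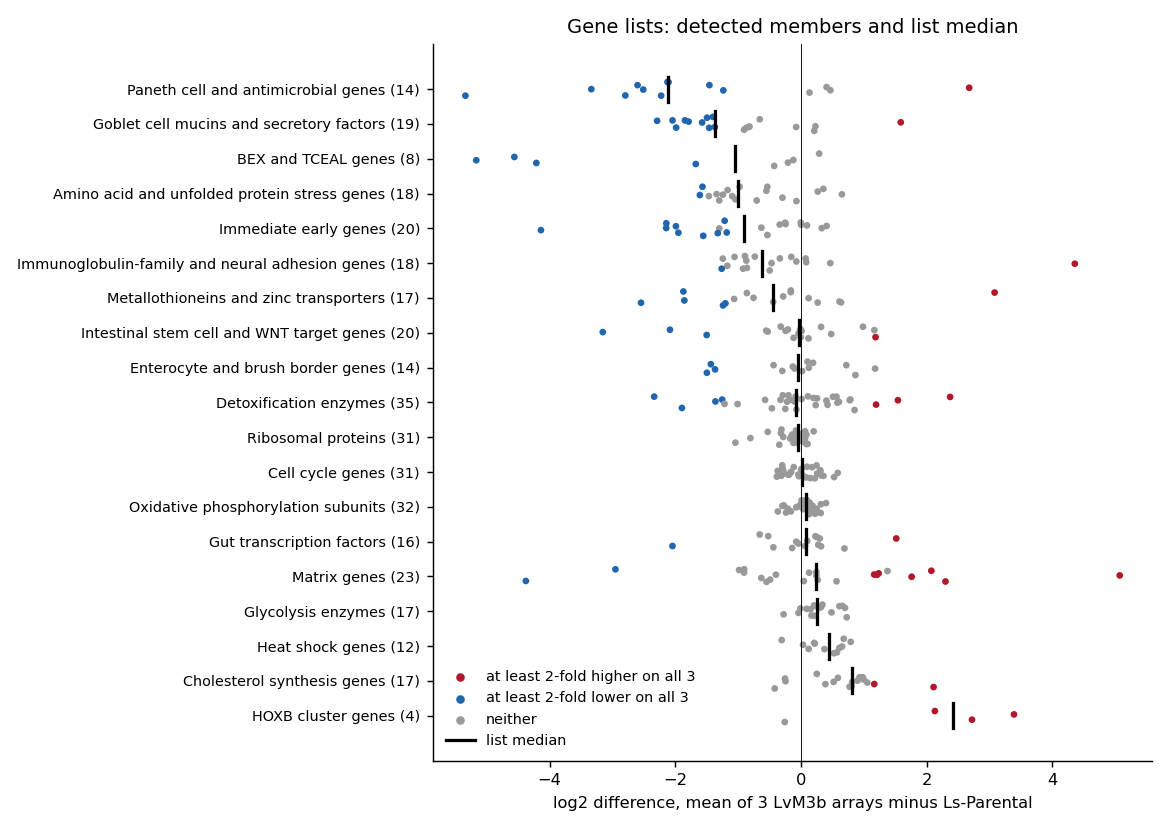
Log2 difference between the mean of the 3 LvM3b arrays and Ls-Parental (x axis) for the detected members of 19 gene lists, whose number is in brackets. Black bars are list medians, from -2.12 for Paneth cell and antimicrobial genes to 2.43 for HOXB genes; red and blue points passed the 2-fold rule on all 3 LvM3b arrays, and grey points did not.

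Immediate early genes are switched on within minutes by serum and stress. Of 20 detected members, 9 were at least 2-fold lower on all 3 arrays and none was higher, and 11 passed in neither direction. The median was -0.91 (-0.60 in the authors' processed values), and 3 members lay above Ls-Parental on every LvM3b array. FOSB was at 6.42, 6.70 and 7.0 in LvM3b and 10.85 in Ls-Parental (17.6-fold lower). The lowest detected levels of the LvM3b arrays were 6.15 to 6.38, so this fold rests on LvM3b signals close to background. FOS was at 10.62, 10.89 and 10.65 against 12.86 (4.42-fold lower), and JUN, its partner in the AP-1 factor, was at 10.12, 10.20 and 10.17 against 12.31 (4.42-fold lower). The phosphatase DUSP1 was 3.97-fold lower, and EGR1 was at 10.41, 10.04 and 9.75 in LvM3b against 12.01 in Ls-Parental (3.87-fold lower). KLF2, KLF6, CCN1 and CCN2 completed the 9, with log2 differences of -1.18, -1.32, -1.21 and -1.56. The members MYC, SRF and DUSP2 lay at 0.00, 0.10 and 0.00. Of 20 detected EGFR ligands and ERK feedback genes none passed the rule, which 4.02% of all genes passed, and limma called 4 higher and 5 lower.

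The promoter of EGR1 is shown because it carries the serum response factor motif. The RefSeq promoter on GRCh38.p14, chr5:138465229-138465478, plus strand, covers 250 bases before the gene start, and capitals mark each CArG box.
EGR1: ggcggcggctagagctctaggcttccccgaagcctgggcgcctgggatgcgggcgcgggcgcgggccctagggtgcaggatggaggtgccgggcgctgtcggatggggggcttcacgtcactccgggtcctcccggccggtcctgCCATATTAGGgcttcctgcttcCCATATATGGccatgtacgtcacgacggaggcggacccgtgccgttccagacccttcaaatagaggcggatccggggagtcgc
It held 2 CArG boxes, counted on both strands with overlapping matches kept apart by position. At least 1 box stood in 1.16% and at least 2 in 0.0313% of 35116 promoters of this length. Of the 9 lower immediate early genes 8 had a single promoter entry, and EGR1 was the only one of these with a box in its 250 bases.

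Metallothioneins are small proteins that bind zinc and copper. Of 8 detected genes of the family, all on chromosome 16, 5 were lower and 1 was higher, beside 1.97% and 2.05% of all genes. MT1M was at 10.04, 9.87 and 9.69 in LvM3b and 12.41 in Ls-Parental (5.84-fold lower). MT1H was at 12.78, 12.70 and 12.44 against 14.51 (3.66-fold), and MT1F was 3.62-fold, MT2A 2.36-fold and MT1X 2.3-fold lower. MT1G and MT1E had log2 differences of -1.06 and -0.76 and missed the rule on at least 1 array. MT4, a form described in stratified epithelium, went the other way, at 8.82, 9.13 and 8.61 in LvM3b and undetected in Ls-Parental (at least 6.61-fold higher). The copies are similar in sequence, so a probe may read more than 1 of them. Including the zinc transporters, 5 of 17 detected members were lower and 1 was higher, with a median of -0.44 (-0.26 in the authors' processed values); the metal sensor MTF1 differed by -0.16.

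Promoters of the lower metallothioneins with a single entry are shown because these genes were lower together and are known targets of the metal sensor. They are RefSeq sequences on GRCh38.p14, plus strand, at chr16:56669564-56669813, chr16:56682220-56682469 and chr16:56608334-56608583, and each ends at the gene start. Capitals mark the metal response element core, TGCACNC or TGCGCNC, on either strand.
MT1H: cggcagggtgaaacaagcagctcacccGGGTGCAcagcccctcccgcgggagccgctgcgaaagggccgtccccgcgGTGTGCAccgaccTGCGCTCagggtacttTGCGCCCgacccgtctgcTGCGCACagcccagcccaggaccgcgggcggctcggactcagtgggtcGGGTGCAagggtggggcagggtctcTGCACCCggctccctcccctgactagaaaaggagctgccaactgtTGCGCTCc
MT1X: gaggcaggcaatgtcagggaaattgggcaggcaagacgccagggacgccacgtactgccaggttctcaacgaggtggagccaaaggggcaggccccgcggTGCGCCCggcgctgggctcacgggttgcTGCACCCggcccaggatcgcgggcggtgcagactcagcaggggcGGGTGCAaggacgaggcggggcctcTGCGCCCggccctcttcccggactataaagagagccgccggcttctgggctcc
MT2A: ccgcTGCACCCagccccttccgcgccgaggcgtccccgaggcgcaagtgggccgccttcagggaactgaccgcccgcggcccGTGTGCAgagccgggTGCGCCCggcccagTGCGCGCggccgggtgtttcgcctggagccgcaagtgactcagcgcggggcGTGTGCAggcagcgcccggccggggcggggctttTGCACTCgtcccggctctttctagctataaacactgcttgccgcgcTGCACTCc
MT1H held 8 cores, MT1X 4 and MT2A 7, and none of them overlapped. At least 1 core stood in 24.8% of the 35116 promoters, at least 2 in 6.48% and at least 4 in 0.370%. The promoter of MT4, which was higher, held 3.

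For amino acid and unfolded protein stress genes the difference varied between the LvM3b arrays. The median over 18 detected members was -0.48 in the LvM3b control, -0.84 with miR-483 and -1.30 with miR-551a. Only DDIT3 and ASNS passed the 2-fold rule, which 4.02% of all genes passed. On all 3 arrays 13 members lay below and 3 above Ls-Parental. The limma fit called 11 lower and 1 higher, beside 8.6% and 9.56% of all genes. ASNS, asparagine synthetase, was at 12.80, 12.07 and 11.85 in LvM3b and 13.81 in Ls-Parental (2.96-fold lower). The LvM3b control lay nearest to Ls-Parental, and the miR-551a array furthest from it. DDIT3, a death-promoting transcription factor, was at 8.81, 8.40 and 7.84 in LvM3b and 9.96 in Ls-Parental (3.05-fold lower). ATF4, the factor that drives many of these genes, was at 15.12, 14.78 and 14.55 in LvM3b and 15.11 in Ls-Parental.

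Of 17 detected cholesterol synthesis genes 2 were at least 2-fold higher on all 3 LvM3b arrays and none was lower. In all, 14 lay above and 3 below Ls-Parental on every LvM3b array, and limma called 12 higher and none lower, with a median of 0.81 that changed little between arrays, from 0.73 to 0.85. HMGCS1, an enzyme of early mevalonate synthesis, was at 14.64, 14.90 and 14.79 in LvM3b and 12.67 in Ls-Parental (4.32-fold higher). INSIG1, the sterol sensor partner, was at 13.11, 13.25 and 13.29 against 12.05 (2.25-fold). SQLE, IDI1 and LSS had differences of 1.06, 0.98 and 0.90. Heat shock genes had a median of 0.45 and glycolysis enzymes 0.25 (0.41 in the authors' values), with none of 12 and none of 17 past the rule. The limma fit called 5 of the heat shock and 7 of the glycolysis genes higher and none lower, beside 9.56% of all genes higher and 8.6% lower. Cell cycle genes (31 detected), ribosomal proteins (31) and oxidative phosphorylation subunits (32) had medians of 0.01, -0.04 and 0.08 (0.18, 0.03 and 0.22 in the authors' values) and no member that passed the rule. Of all genes 4.02% passed it, so few or no calls in each of these 5 lists would match that share.

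**Figure D4:**
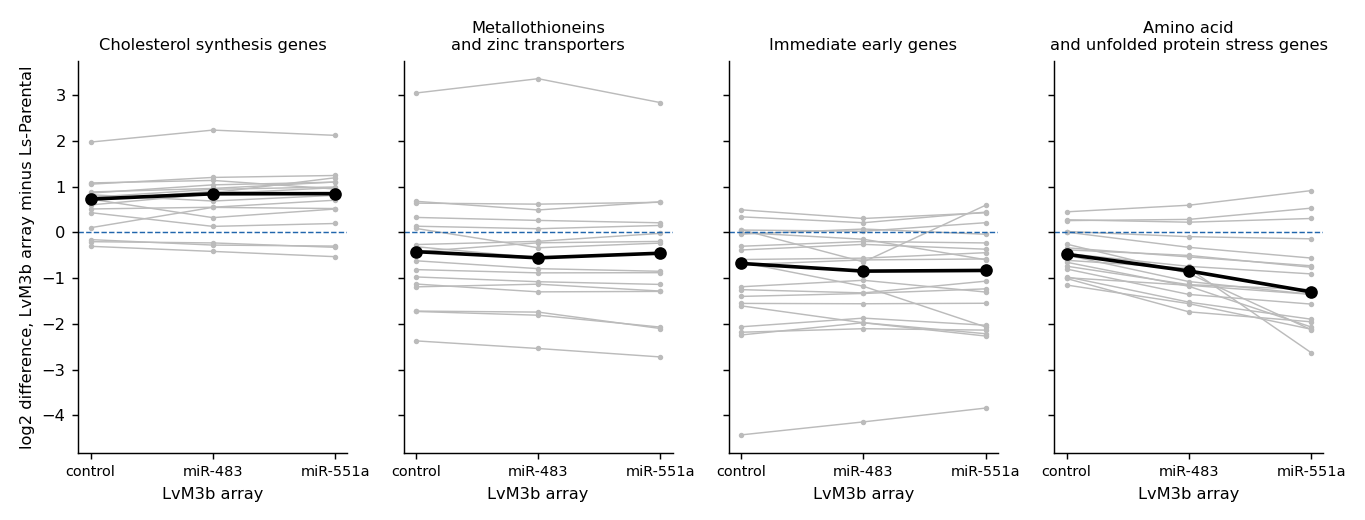
Log2 difference of each LvM3b array from Ls-Parental (y axis) for the detected members of 4 lists (grey) and their median (black), with Ls-Parental at the dashed line. The cholesterol and metallothionein medians are nearly level over the 3 arrays, while the stress gene median is -0.48, -0.84 and -1.30.

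Matrix and adhesion genes went both ways. Of 23 detected matrix genes 7 were higher and 2 lower, beside 2.05% and 1.97% of all genes, with a median of 0.24. With bounds 5 stayed 2-fold higher and 2 stayed lower. The 7 higher genes were SBSPON, LUM, COL13A1, COL3A1, COL6A1, VCAN and MATN2. COL13A1 was undetected in Ls-Parental, and its bound was 1.65-fold. LUM, a small proteoglycan, was at 8.44, 8.13 and 8.46 in LvM3b and undetected in Ls-Parental (at least 4.65-fold higher), and COL3A1 was at least 1.33-fold higher. Both are also fibroblast markers; the other 6 of that list were undetected in both lines. THBS2, a thrombospondin, was at 10.18 in Ls-Parental and undetected in LvM3b (at least 15.4-fold lower), and the proteoglycan BGN was at least 3.89-fold lower. Of 18 detected immunoglobulin-family and neural adhesion genes, NRCAM alone was higher by the rule, and UNC5B alone was lower, with a bound of 1.14-fold. Their median was -0.62, and 13 lay below Ls-Parental on every LvM3b array. Among 10 detected cadherins CDH11 alone passed the rule. The tight junction protein CLDN2 was at 12.02, 11.87 and 12.09 in LvM3b and 9.69 in Ls-Parental (4.92-fold higher). ITGB4, the laminin receptor subunit of epithelial cells, was at least 3.91-fold lower, and ITGB7 at least 2.5-fold higher. In the epithelial-mesenchymal list none of 12 detected genes passed the rule, beside 4.02% of all genes, and limma called 2 higher and 1 lower. E-cadherin, CDH1, was at 12.98, 13.07 and 12.90 in LvM3b against 12.69 in Ls-Parental.

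Other signalling and metabolic lists held a few calls each. IGFBP2, which binds insulin-like growth factors, was at 11.30, 11.40 and 11.34 in LvM3b and 8.83 in Ls-Parental (5.71-fold higher). The Notch ligands JAG1 and JAG2 were 2.67-fold and at least 2.32-fold higher, and the Notch target HES4 was 2.53-fold lower. CCND2, a D-type cyclin, was 3.46-fold lower, and GDF15 3.34-fold lower. The aldo-keto reductase AKR1B10 was at 10.42, 10.68 and 11.14 in LvM3b and 8.37 in Ls-Parental (5.19-fold higher), and AKR1C2 was 2.91-fold higher. The glucuronosyltransferase UGT2B15 was undetected in LvM3b and at least 3.83-fold lower. Adenylate kinase AK4 was 5.63-fold higher. Of the interferon-stimulated genes BST2 was at least 3.83-fold and MX1 2.16-fold higher, while the median of 18 detected members was -0.21 (-0.07 in the authors' values). CD14, listed as an immune marker, was at 8.47 in Ls-Parental and undetected in LvM3b (at least 4.71-fold lower).

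Some of the called genes were neighbours on a chromosome, taken among the detected genes in RefSeq order. Runs of adjacent genes with the same call held 21 of the higher genes in 9 runs and 27 of the lower genes in 12. The longest was on chromosome 22, where TPST2, CRYBA4, CRYBB1 and MIAT stood side by side and were all higher. CRYBB1, a lens crystallin that no naming rule had picked, was at 8.14, 7.99 and 7.81 in LvM3b and undetected in Ls-Parental (at least 3.61-fold). Chromosome 22 had 5.26% of its 228 detected genes among the higher ones, the largest share of any chromosome, beside 2.05% of all genes. The 4 genes of the run were among its 12 higher genes. For the lower genes the largest shares were 4.38% on chromosome 4, 4.08% on X and 4% on 21, beside 1.97% of all genes. Runs of 3 were HOXB5, HOXB7 and HOXB8 among the higher genes, and among the lower genes REG1B, REG1A and REG3A, the defensins DEFA6, DEFA1 and DEFA5, and BEX2, TCEAL9 and BEX3. CD70 and TNFSF9, adjacent ligands of the tumour necrosis factor family on chromosome 19, were 4.1-fold and 2.59-fold higher.

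Second probes were read as a check within the array. Another probe counted as detected on all 3 LvM3b arrays for higher genes and on Ls-Parental for lower genes. That choice favours probes that share the call, so agreement is partly built in. Of 66 higher and 76 lower genes with another probe, 30 and 44 had one detected in this way. Of 30 higher genes with another detected probe, 28 had every such probe in the same direction on all 3 LvM3b arrays and 21 had all of them at 2-fold. The exceptions were CDC14B and ICE2, whose other probes lay between -0.36 and -0.04 on the log2 scale. Of 44 lower genes with another detected probe, all 44 kept the direction and 32 held 2-fold. The size could differ by probe. Other detected probes gave log2 differences of -2.60 and -1.24 for BEX3 (-4.56 with the probe used) and -1.40 for LYZ (-2.60). For KLF4 the other probe gave -1.02 (-2.04), and for AK4 the others gave 1.02 and 1.23 (2.49). For NRCAM and PLAC8 the second probes gave larger differences than the probes used.

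Not every 2-fold difference from Ls-Parental held on all LvM3b arrays. Among higher genes 99 passed on 1 array, 53 on 2 and 200 on all 3, and among lower genes 183, 86 and 192. Of the genes higher on the control, miR-483 or miR-551a array, 73.3%, 77.5% and 73.0% held on all 3. For the lower genes these shares were 71.4%, 64.4% and 52.7%, and 100 genes were lower on the miR-551a array alone. Among genes detected on all 4 arrays and 2-fold from Ls-Parental on 1 or 2 LvM3b arrays, the widest range was that of DDIT4, an inhibitor of mTORC1, at 12.94, 12.30 and 11.07 in LvM3b and 13.19 in Ls-Parental, so that only the miR-551a array was 2-fold lower. TSC22D3, a glucocorticoid-induced gene, was at 9.62, 9.07 and 8.04 against 9.37 in Ls-Parental, and the LvM3b values spread to both sides of the parental one. COXFA4L2, a mitochondrial protein gene, was at 7.99, 6.82 and 6.43 against 8.12, and the glycine transporter SLC6A9 at 8.41, 7.61 and 6.96 against 8.57. In these 2 genes the LvM3b control stayed within 0.2 log2 units of Ls-Parental.

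**Figure D5:**
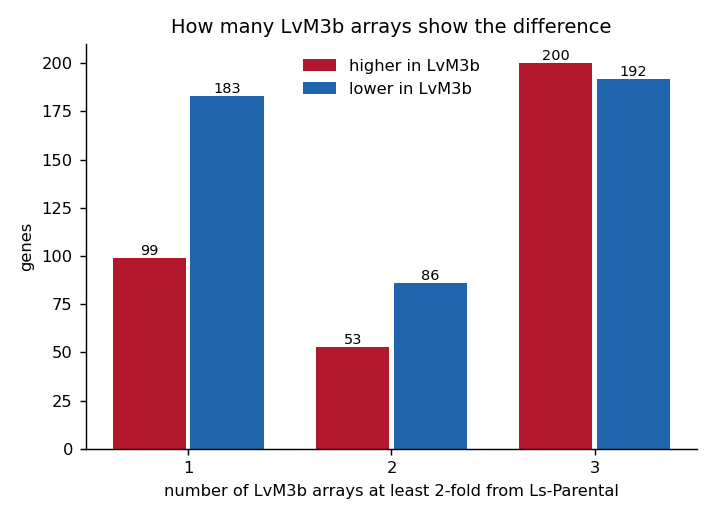
Number of genes (y axis, from 0) that differed from Ls-Parental by at least 2-fold on 1, 2 or 3 of the LvM3b arrays (x axis), for genes higher (red) and lower (blue) in LvM3b. The bars at 3 arrays, 200 and 192 genes, are the line differences of the text.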

How the data were processed

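RNA of 4 cultures was measured on Illumina bead arrays, 1 per culture. Per the labels' protocols, RNA was prepared with Ambion's miRVANA kit and amplified to biotin-labelled cRNA. Per the file headers, the deposited table gives each probe an intensity, linear and not normalized, and a Detection score from 0 to 1. The authors' second table of intensity equals the first times 1 factor per array (1 to 1.11), as found from the values. Their software was not given in the sources used here. Sequencing depth has no counterpart on arrays: their number limits the precision.

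With limma 3.58.1 in R 4.3.3, background was corrected by normexp from 1 minus the Detection score, with an offset of 16, then arrays were quantile normalized and log2 transformed. Of 48803 probes 27578 named 1 gene, 13 several and 21212 none; 27541 were matched to RefSeq (GRCh38.p14). A gene's level was that of its probe with the highest mean over the arrays. The limma fit (eBayes with trend, 12.7 degrees of freedom) ran over all 9756 genes, with Benjamini-Hochberg adjustment. The calculations were tested on simulated data.

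Members, the 50 gene lists and the naming rule were chosen with earlier results of these data known. The rule took the 14 furthest genes in each direction detected on all 4 arrays, ranked by the smallest of the 3 differences; the 6 genes per direction with the highest bounds, if every dim array had a detection p no lower than 0.05; up to 5 called genes per list or its 2 brightest members; and 4 genes that did not hold; 1 gene of the rule is not reported here. Further list members, chromosome neighbours and second probes were named after their values were seen. Alternatives changed background, normalization, offset, probe choice, filter, fold and arrays included.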

Additional observations from a re-analysis of the deposited data

How the results depend on the processing

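Without background correction 111 genes were higher and 101 lower on all 3 LvM3b arrays, and restricted to genes detected on all 4 arrays 129 and 97. The authors' processed values gave 80 lower genes. At 1.5-fold there were 488 higher and 459 lower genes, and at 4-fold 52 and 35. Leaving out 1 LvM3b array gave 218 to 230 higher and 206 to 242 lower genes. The count of genes not held on all 3 arrays was 421 in the main values, 165 without background correction, 184 in the authors' values, 240 with an offset of 50, 247 for genes detected on all 4 arrays, 646 with no detection filter, 1368 at 1.5-fold and 84 at 4-fold, and 261 to 307 with 1 LvM3b array left out. The limma fit called 1714 genes higher in the authors' values. Its counts moved with 1 array: 563 higher and 476 lower without miR-483, and 1364 higher and 1389 lower without the LvM3b control. Ls-Parental could not be left out, since no comparison would remain. No result changed sign past the threshold. In the authors' values, whose median over all genes lay 0.10 above 0 (log2), 135 of 141 named genes and 35 of 45 list medians kept their sign, but only 31 genes and 8 medians moved by less than the spread between LvM3b arrays. Without background correction all 141 genes and 45 medians kept their sign, and 60 and 33 moved by less than that spread. No paired analysis was possible because every culture carries the number 1 and Ls-Parental has a single array. Probes near background limit the folds of dim genes. Bounds cover undetected levels only, and levels just above the detection limit are given as plain folds.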
